A study of Homo sapiens with 6 samples.

Results

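Sense-strand promoter R-loops are R-loop peaks near the start of a protein-coding gene that lie on the strand of that gene. A peak was taken as a sense promoter peak when its midpoint lay from 1000 bp upstream to 100 bp downstream of the start of a GENCODE release 44 coding gene (the 5′ end of the gene record) and its strand was that of the gene. Genes with the start of an opposite-strand coding gene within 1000 bp were left out, which removed 2678 of 20163 coding genes and left 17485 eligible genes. The rule found 740 sense promoter peaks among the 10231 peaks of untreated cells and 832 among the 11085 peaks of treated cells, which is 7.23% (95% Wilson interval 6.75% to 7.75%) and 7.51% (7.03% to 8.01%) of the lists.

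The peaks come from spKAS-seq of HEK293T, an established human embryonic kidney line, in which N3-kethoxal labels guanine in single-stranded DNA and the labelled strand is sequenced with its orientation kept. Cells were left untreated or given 10 μM N2-heptynyl-dG, a modified nucleoside that is built into genomic DNA as an alkylated guanine, for 3 h. Both groups were then labelled with 5 mM N3-kethoxal for 10 min. There were 2 samples a group and 2 inputs, and the 1 peak list of each condition was used, so no value below has a spread between replicates and no test between conditions was made. The lists give a position and a strand and no height, the depth behind a peak is unknown, and intervals cover the counting of peaks or genes only, which are not replicates. No expression data were analysed here, so the identity of the cells and the activity of a gene were not checked.

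In an R-loop the nascent RNA pairs with the template strand and leaves the other strand, which has the sequence of the RNA, single-stranded. At a gene start a peak on the gene strand therefore has the orientation of the gene's own transcript, and a peak on the opposite strand that of a transcript running away from the gene. Many human promoters are transcribed in both directions. R-loops are known from GC-rich starts, often where G exceeds C on the displaced strand, and from the ends of genes, where transcription runs on past the last exon into whatever lies next.

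Stretches of 150 bases from inside such peaks are shown to make the base composition visible. They are GRCh37 reference sequence on the gene strand, 5′ to 3′, with runs of 3 or more G in capitals, and were taken upstream of the gene start only where no annotated exon lies. CUL3, the scaffold of a ubiquitin ligase, and PRSS35, a serine protease family gene, had the lowest GC skew, (G − C)/(G + C), among peaks found in both lists. The ranking used the widest treated peak of each gene. Their stretches end at the base before the start and lie at chr2:225450115-225450264 on the minus strand, with a GC skew of -0.482 and 2 G runs, and at chr6:84222103-84222252 on the plus strand, with -0.673 and 0 G runs. DUSP10, a phosphatase of stress-activated kinases, and ERVK3-1, a gene derived from an endogenous retrovirus, came from the high end of the same ranking. Their stretches also end at the start and lie at chr1:221915432-221915581 on the minus strand, with -0.0667, and at chr19:58816590-58816739 on the plus strand, with 0.0891 and 3 G runs.
CUL3: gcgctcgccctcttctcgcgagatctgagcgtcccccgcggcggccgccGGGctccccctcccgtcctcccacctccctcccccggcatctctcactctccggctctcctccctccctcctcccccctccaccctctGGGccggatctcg
PRSS35: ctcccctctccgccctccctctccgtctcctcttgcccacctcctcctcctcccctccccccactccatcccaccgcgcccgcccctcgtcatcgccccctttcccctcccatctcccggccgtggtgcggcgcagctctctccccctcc
DUSP10: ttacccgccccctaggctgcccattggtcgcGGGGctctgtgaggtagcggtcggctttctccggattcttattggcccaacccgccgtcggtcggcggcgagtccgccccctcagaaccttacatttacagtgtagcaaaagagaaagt
ERVK3-1: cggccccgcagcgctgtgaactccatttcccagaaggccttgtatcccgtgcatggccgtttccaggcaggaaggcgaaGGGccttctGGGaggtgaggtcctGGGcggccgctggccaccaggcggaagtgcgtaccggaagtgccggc
Over the whole treated peaks the GC skew was -0.311 at CUL3, -0.295 at PRSS35, 0.209 at DUSP10 and 0.197 at ERVK3-1. The high skew of the last pair thus lay outside the stretch shown, and the DUSP10 stretch holds 2 CCAAT boxes counted on both strands.

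The next stretches belong to peaks that end before the gene start and are shown because such peaks have a setting of their own, described below. They are the 150 bases of the peak nearest to the start for GCN1, an activator of the stress kinase GCN2, at chr12:120632546-120632695 on the minus strand, for ADAM8, a membrane metalloprotease, at chr10:135090399-135090548 on the minus strand, and for RBM15B, an RNA-binding protein of the RNA methylation machinery, at chr3:51428482-51428631 on the plus strand. They were chosen after their values were seen, as the widest such peaks in both lists whose stretch holds no annotated exon.
GCN1: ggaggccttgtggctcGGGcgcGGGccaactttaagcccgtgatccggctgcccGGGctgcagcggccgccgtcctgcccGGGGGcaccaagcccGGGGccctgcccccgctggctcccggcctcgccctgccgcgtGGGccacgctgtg
ADAM8: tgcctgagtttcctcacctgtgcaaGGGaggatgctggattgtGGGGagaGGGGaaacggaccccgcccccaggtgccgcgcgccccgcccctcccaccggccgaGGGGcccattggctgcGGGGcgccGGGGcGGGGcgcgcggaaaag
RBM15B: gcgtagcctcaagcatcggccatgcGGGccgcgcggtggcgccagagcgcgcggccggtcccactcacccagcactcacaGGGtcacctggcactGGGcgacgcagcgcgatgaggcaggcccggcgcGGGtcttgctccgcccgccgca
The GCN1 stretch lies 177 to 28 bp before the start and holds 6 G runs, the ADAM8 stretch 176 to 27 bp before it with 7 G runs, and the RBM15B stretch 234 to 85 bp before it with 4 G runs.

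Around the starts of eligible genes the strand of the peaks turned over across the start. From 1 to 500 bp upstream 264 peaks of the untreated list lay on the gene strand and 942 on the opposite strand, so that 21.9% (19.6% to 24.3%) were sense, and the treated list had 302 and 1003, or 23.1% (20.9% to 25.5%). From 0 to 100 bp downstream the sense share was 90.0% (86.8% to 92.5%) in untreated and 88.7% (85.5% to 91.2%) in treated cells, and from 101 to 500 bp downstream it was 90.1% and 89.6%. Deep inside coding genes, over 5000 bp from either end, 73.2% of untreated and 72.0% of treated peaks lay on the gene strand. Over the whole window, 37.9% (35.8% to 40.1%) of the promoter peaks of untreated cells and 38.8% (36.8% to 40.9%) of those of treated cells were sense, against 1213 and 1310 peaks on the opposite strand. This share depends on which start is used. With the start of any coding transcript it was 52.8% and 54.0%, and for genes whose canonical transcript begins at the gene start, an alternative chosen after seeing the data, it was 43.1% and 43.9%.

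**Figure D1:**
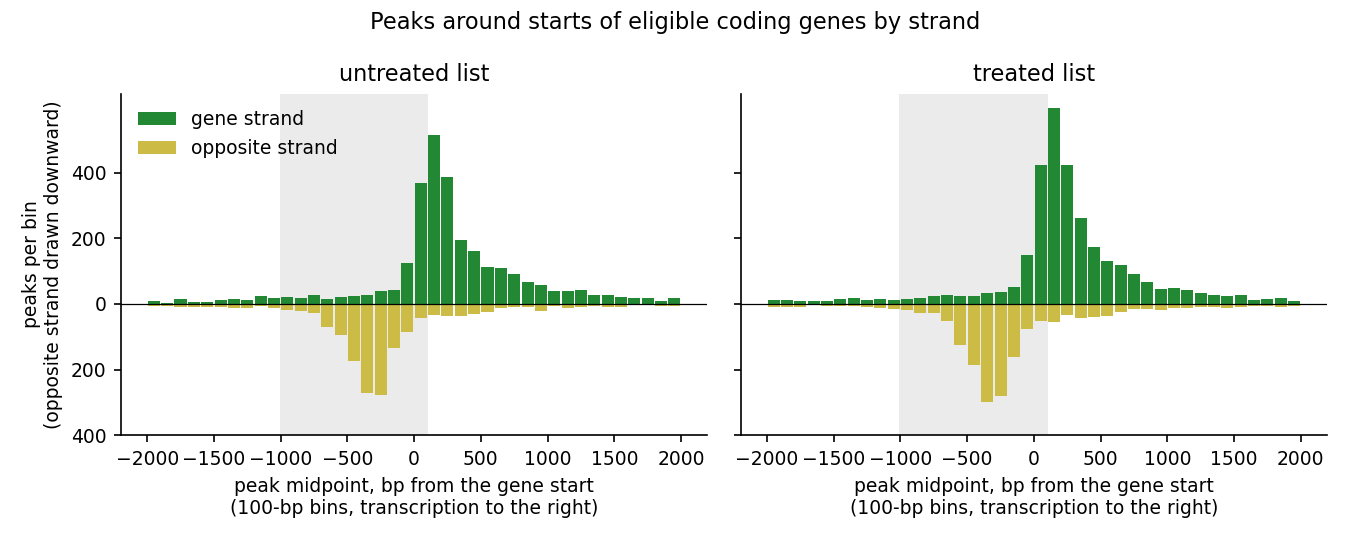
Number of peaks per 100-bp bin of midpoint distance from the start of eligible coding genes, with gene-strand peaks drawn upward and opposite-strand peaks downward, for the untreated list (left) and the treated list (right). The grey band is the window of the rule, and gene-strand peaks are most frequent just past its right edge, with 515 untreated peaks in the bin from 100 to 199 bp.

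Most sense promoter peaks covered the start, which the rule partly fixes. None was under 500 bp wide, so a peak with its midpoint within 250 bp of the start covers it by construction, and none of the 740 and 832 peaks lay wholly downstream. The midpoint was 0 to 100 bp downstream of the start in 50.5% of the untreated and 51.2% of the treated peaks, 1 to 250 bp upstream in 26.2% and 26.7%, and 501 to 1000 bp upstream in 14.3% and 13.1%. The peak covered the gene start in 643 of 740 untreated peaks and 723 of 832 treated peaks, 86.9% (84.3% to 89.1% and 84.4% to 89.0%) in each list. Those peaks reached a median of 329 bp and 331 bp past the start, and a median of 52.6% and 53.2% of their width lay downstream of it. The other 97 untreated and 109 treated peaks, 13.1% of each list, lay wholly upstream, at a median gap of 269 bp and 247 bp. The right edge of the window runs through the rising flank of the gene-strand peaks. In untreated cells 214 peaks had their midpoint 51 to 100 bp downstream, just inside, and 253 had it 101 to 150 bp downstream, just outside, with the same median width of 500 bp. In treated cells these were 248 and 287.

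The peaks covering a start spanned the promoter and the beginning of the gene. Of all bases in sense promoter peaks, 67.8% in untreated and 66.2% in treated cells lay outside the gene's canonical transcript, 12.6% and 13.4% in untranslated exon, 6.11% and 6.45% in coding exon and 13.5% and 14.0% in intron. These shares include the wholly upstream peaks. The canonical transcript began at the gene start in 389 of 762 untreated and 449 of 858 treated genes with a sense promoter peak. Bases outside it can therefore also lie downstream of the gene start. Of the start-covering peaks, 62.4% and 63.5% reached the first intron.

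A sense promoter peak was present at 762 eligible genes in untreated cells, 4.36% (4.07% to 4.67%), and at 858 in treated cells, 4.91% (4.60% to 5.24%). The difference was 0.549 percentage points (0.108 to 0.990 with the lists taken as independent, and 0.281 to 0.817 with the genes paired between the lists). With peaks of at least 750 bp alone it was 0.292 points, with an interval from -0.0363 to 0.620 that includes 0 when the lists are taken as independent and from 0.0999 to 0.484 with the genes paired. Genes are not replicates, so none of these intervals tests the treatment. The treated list is also longer, with 11085 against 10231 peaks, and the shares of the lists that were sense promoter peaks had overlapping intervals. In all, 1096 genes (6.27% of eligible genes) had a sense promoter peak in either list, 524 (3.00%) in both, 238 (1.36%) in the untreated list alone and 334 (1.91%) in the treated list alone. Many genes of one list alone had an overlapping peak in the other. Of the 238 genes of the untreated list alone, 127 (53.4%, 47.0% to 59.6%) had a member peak overlapping a same-strand treated peak that fell outside the window, and of the 334 genes of the treated list alone 128 (38.3%, 33.3% to 43.6%) had such an untreated peak. The other list had no same-strand peak within 2000 bp of the start at 105 (44.1%) and 187 (56.0%) of them.

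Genes with a sense promoter peak followed closely behind another gene more often than coding genes at large. A coding gene on the same strand ended within 5 kb upstream of the start at 13.3% (12.8% to 13.8%) of eligible genes, but at 312 of the 762 untreated genes with a sense promoter peak, 40.9% (37.5% to 44.5%), and at 338 of the 858 treated genes, 39.4% (36.2% to 42.7%). Genes with a promoter peak on the opposite strand had such a neighbour in 6.60% and 6.19% of cases, 34.3 points (30.6 to 38.1) and 33.2 points (29.7 to 36.7) less. Genes with a gene-strand peak 101 to 1000 bp downstream had one in 16.8% and 16.2%, between these groups. For genes whose canonical transcript begins at the gene start the values were 34.4% and 33.0%, against 12.3% of all such eligible genes.

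The share of genes with a sense promoter peak differed with the distance to the preceding gene. A sense promoter peak was present in untreated cells at 14.9% (12.3% to 18.0%) of genes whose neighbour ended up to 1000 bp upstream, at 21.6% (18.3% to 25.3%) for 1001 to 2000 bp, at 9.09% (7.59% to 10.9%) for 2001 to 5000 bp, at 3.95% (3.05% to 5.11%) for 5001 to 10000 bp, at 2.81% (2.38% to 3.32%) for 10001 to 50000 bp and at 2.90% (2.58% to 3.27%) beyond 50000 bp. In treated cells the values were 14.8%, 20.8%, 11.7%, 3.95%, 3.08% and 3.54%. Promoter peaks on the opposite strand ran the other way, from 2.95% of genes at up to 1000 bp to 8.48% beyond 50000 bp in untreated cells and from 2.95% to 9.39% in treated cells. Gene-strand peaks 101 to 1000 bp downstream were most frequent at up to 1000 bp, at 20.7% and 22.1% of genes, and stood at 10.6% and 11.8% beyond 50000 bp.

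**Figure D2:**
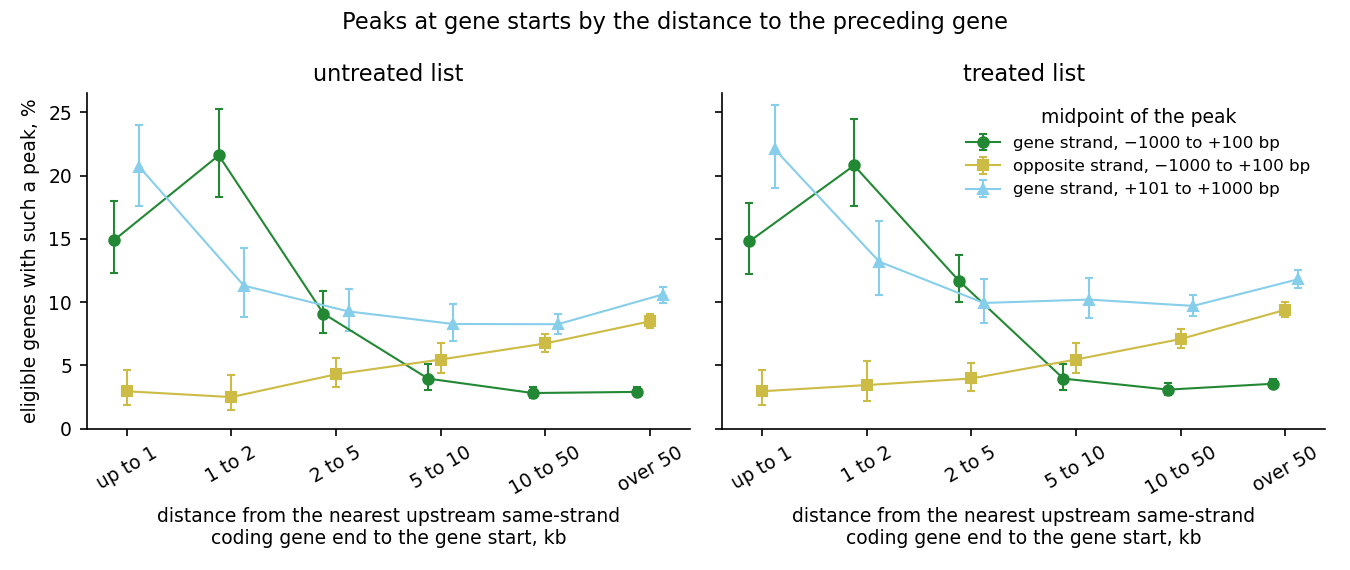
Percent of eligible genes with a peak on the gene strand in the promoter window, on the opposite strand in that window, or on the gene strand 101 to 1000 bp downstream, by the distance in kb from the end of the nearest upstream coding gene of the same strand, with 95% Wilson intervals. Sense promoter peaks are most frequent 1 to 2 kb behind a gene end, at 21.6% of genes in untreated and 20.8% in treated cells, where opposite-strand peaks are at 2.49% and 3.44%.

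The share also differed with the neighbour's own start. Among genes with a coding gene ending within 5 kb upstream, 86 of 392 (21.9%, 18.1% to 26.3%) had a sense promoter peak in untreated cells when that upstream gene had a same-strand peak within 1000 bp of its own start, and 226 of 1929 (11.7%, 10.4% to 13.2%) when it had none, a difference of 10.2 points (6.12 to 14.8). In treated cells the shares were 23.7% and 12.5%, a difference of 11.2 points (7.10 to 15.7). Transcript levels were not measured, so their part in this was not tested.

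The peaks lying wholly upstream of the start were mostly in this arrangement. A same-strand coding gene ended within 5 kb upstream at 76 of 97 (78.4%, 69.2% to 85.4%) in untreated and 82 of 109 (75.2%, 66.4% to 82.4%) in treated cells, compared with 35.6% and 33.9% of the start-covering peaks. Few reached back to the neighbour's end, 11 of 76 in untreated and 8 of 82 in treated cells, and the median distance between that end and the next start was 1849 bp and 2030 bp. None of the genes with such a peak had an opposite-strand promoter peak in the same list, 0 of 97 and 0 of 109, which allows a share of up to 3.09% and 2.75%, whereas 9.18% and 8.58% of the genes with a start-covering peak had one. Wholly upstream peaks take up part of the stretch where opposite-strand promoter peaks lie. Whether the calling lets both strands be called at the same place was not tested, so no conclusion is drawn from the 0. Over all eligible genes an opposite-strand promoter peak was present at 7.10% in untreated and 7.66% in treated cells, and at 8.27% and 7.58% of genes with a sense promoter peak.

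Single loci show the arrangement. At GCN1 both lists had the same peak of 1750 bp, chr12:120632546-120634295, with its midpoint at -903 bp from the start, and RPLP0, which encodes a ribosomal stalk protein, ends 1984 bp upstream. CDH24, a cadherin, had the same 1500-bp peak in both lists, chr14:23526901-23528400, which covers the end of ACIN1, 1026 bp before the CDH24 start. The peak of EHBP1L1, 1500 bp wide in both lists at chr11:65341976-65343475, lay between the end of FAM89B, 1848 bp upstream, and the gene. At ADAM8 the untreated peak measured 1500 bp and the treated peak 1250 bp, with the end of TUBGCP2 1767 bp upstream. RBM15B and CCDC97 had peaks of 1250 bp in both lists, with MANF and HNRNPUL1 ending 1888 bp and 2385 bp upstream.

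The widest peaks shared between the lists also lay behind other genes. H2BC18, a histone H2B gene, had a 3000-bp peak in both lists at chr1:149782580-149785579 that covers its start and the end of H3C13, 852 bp upstream. Histone genes have near-identical copies, so reads may be shared among them. CPT1C, a brain member of the carnitine palmitoyltransferase family, had 3000 bp in untreated cells (chr19:50192182-50195181) and 2750 bp in treated cells, where the upstream border moved 250 bp toward the start, and both peaks cover the end of ADM5, 323 bp upstream. SYCE2, a synaptonemal complex gene, had the same 2750-bp peak in both lists, chr19:13029595-13032344, behind FARSA, which ends 3186 bp upstream. CHRNE, a subunit of the muscle acetylcholine receptor, had an untreated peak of 2000 bp and a treated peak of 2750 bp (chr17:4836751-4839500), with SLC25A11 ending 2692 bp upstream. SLC25A17, a peroxisomal carrier, had a member peak of 2750 bp in the treated list alone (chr22:41215011-41217760, midpoint at -983 bp), which overlaps an untreated peak outside the window, and ST13 ends 5136 bp upstream.

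The widest peaks of one list alone were narrower than these. The widest untreated peaks without a treated partner were at TRIOBP, an actin-binding protein gene, with 1500 bp (chr22:38091511-38093010, wholly upstream, NOL12 ending 3572 bp before the start), and at FAM161A, a ciliary gene, and ESR2, estrogen receptor beta, with 1000 bp each over the start. The widest treated peaks without an untreated partner were at CCDC169-SOHLH2, a read-through gene, with 1250 bp (chr13:36872001-36873250, wholly upstream, SPART ending 3796 bp before the start), at MYLK3, a cardiac myosin kinase, with 1250 bp over the start, and at NBPF9 with 1000 bp. NBPF9 belongs to a family of near-identical copies, so its reads may be shared.

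Sense promoter peaks were found in both lists more often than the sum of all other peaks, but at equal width their intervals mostly overlapped those of other peaks near gene starts. A same-strand peak of the other list overlapped 627 of 740 untreated peaks, 84.7% (82.0% to 87.1%), and 630 of 832 treated peaks, 75.7% (72.7% to 78.5%). The background over all peaks was 74.6% and 69.2%, and the difference from all other peaks of the list was 10.9 points (7.99 to 13.5) and 7.02 points (3.86 to 9.95). Width moved with this share, so it is given by width. At 500 bp 73.8% (68.9% to 78.1%) of untreated sense promoter peaks and 63.1% (61.6% to 64.6%) of the other peaks were shared, at 750 bp 91.3% and 73.3%, and at 1000 bp or more 97.4% (94.0% to 98.9%) and 86.5% (85.3% to 87.6%). In treated cells the shares were 60.9% and 54.1%, 84.7% and 69.4%, and 93.0% and 87.5%. Gene-strand peaks 101 to 1000 bp downstream came close, with 71.5%, 85.5% and 96.2% in untreated and 58.8%, 79.0% and 91.8% in treated cells, and their intervals overlapped those of the sense promoter peaks at each width. Promoter peaks on the opposite strand had 66.8%, 87.5% and 88.7% in untreated cells, where the intervals at 1000 bp or more did not overlap, and 61.1%, 81.3% and 90.3% in treated cells, where they overlapped at each width. Sense promoter peaks ranged from 500 to 3000 bp, with a median of 750 bp in each condition, and 46.4% and 46.2% of them were 500 bp wide.

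**Figure D3:**
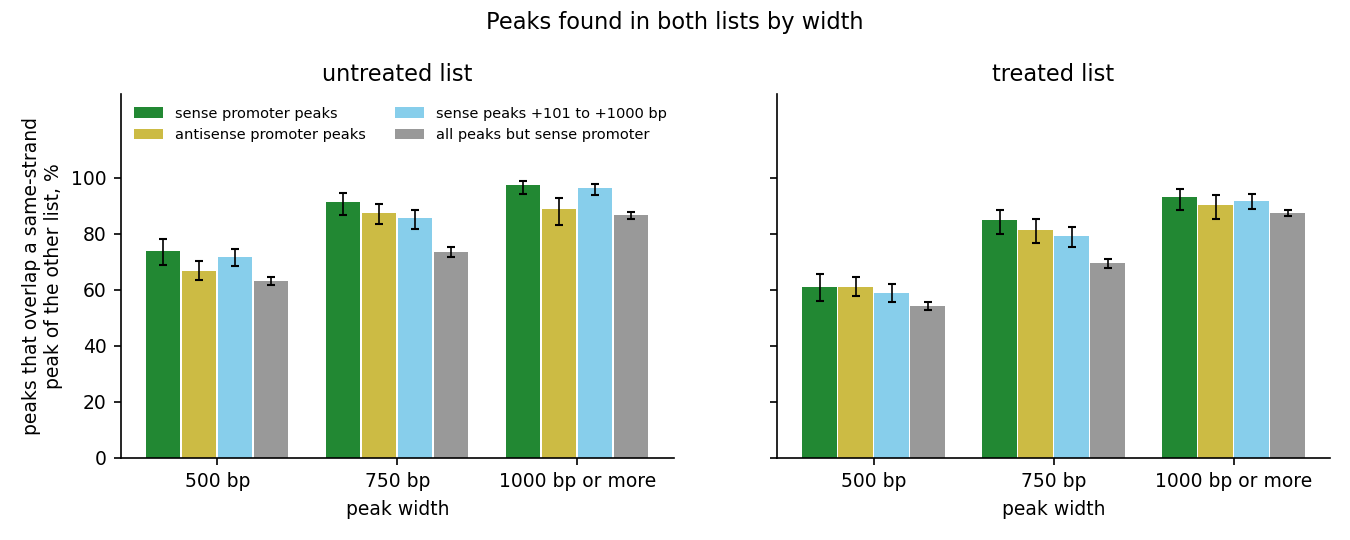
Percent of peaks sharing 1 bp or more with a same-strand peak of the other condition, by peak width, for sense promoter peaks, antisense promoter peaks, gene-strand peaks 101 to 1000 bp downstream and all peaks other than sense promoter peaks, with 95% Wilson intervals. Within each width sense promoter peaks lie above the pooled group of all peaks other than sense promoter peaks, for example 91.3% against 73.3% at 750 bp in untreated cells. Antisense promoter peaks are slightly above them at 500 bp in treated cells.

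Where the lists shared a peak its borders were often the same. Of 737 overlapping pairs with a sense promoter peak in either list, 327 (44.4%, 40.8% to 48.0%) had both borders equal, against 44.3% of the 6706 pairs with none. The treated peak was wider in 28.5% (25.4% to 31.9%) and narrower in 21.2% (18.4% to 24.3%) of the pairs, against 24.6% and 25.5% of the pairs with none. The downstream border lay farther downstream in treated cells in 22.1% and farther upstream in 13.8%, and the upstream border moved either way in 15.1% and 15.3%. The choice of list turns the direction at the downstream border. Among the 619 pairs with an untreated member it lay farther downstream in treated cells in 24.7% and farther upstream in 5.65%, and among the 619 pairs with a treated member in 12.6% and 15.7%, since a peak that reaches farther into the gene can leave the window.

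The peaks were GC-rich, with a median GC skew on the displaced strand near 0. Median GC content was 62.0% in untreated (quartiles 56.1% and 67.4%) and 62.8% in treated cells, compared with 55.6% and 57.1% for all other peaks and 57.6% and 58.4% for promoter peaks on the opposite strand. Gene-strand peaks just downstream were as GC-rich, at 63.2% and 64.0%. Median GC skew on the peak strand was -0.00628 (quartiles -0.0712 and 0.0541) in untreated and -0.0189 in treated cells, with 46.9% and 42.1% of peaks above 0. It was 0 and -0.0129 for all other peaks, and 0.0102 and 0.00152 for the gene-strand peaks downstream. Treated peaks with no untreated partner had a median GC content of 66.1% and a skew of -0.0379 (n = 201), and untreated peaks with no treated partner 62.6% and 0.0121 (n = 113). Peaks wholly upstream of the start were lower in GC content, at 56.0% and 56.8%, and in the ratio of observed to expected CpG, at 0.479 and 0.530, compared with 0.776 and 0.781 for the start-covering peaks.

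A G-quadruplex is a 4-stranded fold of G-rich DNA, searched for here as 4 runs of at least 3 G with 1 to 7 bases between runs. The peak strand held this motif in 25.7% (22.7% to 28.9%) of untreated and 27.6% (24.6% to 30.7%) of treated sense promoter peaks, 8.04 points (4.92 to 11.4) and 8.92 points (5.89 to 12.1) above all other peaks, and it was present in 17.2% and 19.5% of opposite-strand promoter peaks and in 27.2% and 28.7% of the gene-strand peaks downstream. The strand opposite to the peak held it in 33.6% (30.3% to 37.1%) and 40.0% (36.7% to 43.3%) of the sense promoter peaks. The opposite strand was the higher one in the other groups too, at 22.8% and 25.5% of all other peaks against 17.6% and 18.6% on the peak strand, so this order was not particular to sense promoter peaks. The shares follow the length of sequence searched. In the central 500 bp the peak strand held it in 17.7% and 18.9%, and in peaks of at least 750 bp in 33.2% and 34.9%.

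The C-rich side lay before the start. In genes with a start-covering peak, all bases of the bins from 300 to 201, 200 to 101 and 100 to 1 bp upstream gave a GC skew of -0.0621, -0.0640 and -0.0494, against -0.00605, -0.00841 and 0.00246 in the 16371 eligible genes without a sense promoter peak. Gene by gene, the median skew over the 300 bases before the start was -0.0556 (quartiles -0.160 and 0.0490, n = 945) and 64.3% (61.2% to 67.3%) of these genes were below 0, compared with a median of 0 and 49.9% (49.1% to 50.7%) of genes without such a peak. Over the 300 bases from the start the median was 0.0244 and 0.0471. Genes whose peak lay wholly upstream had a different profile, with a median of -0.00437 before the start and 0.101 after it (n = 121), where 21.5% (15.1% to 29.6%) were below 0, against 36.4% of genes without a sense promoter peak. The CUL3 and PRSS35 stretches shown above are examples of the C-rich side, picked by the skew of the whole peak and not of the bases before the start.

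**Figure D4:**
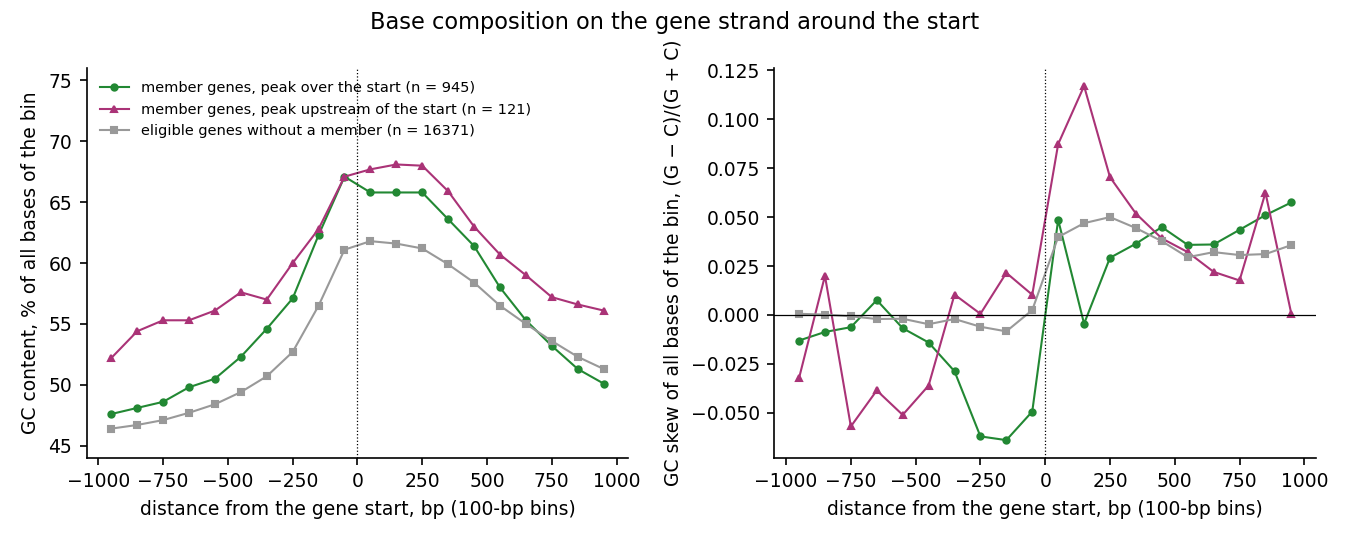
GC content in percent (left) and GC skew (right) of all bases on the gene strand in 100-bp bins around the gene start, for genes with a start-covering peak, genes with a peak wholly upstream and eligible genes with neither. Genes with a start-covering peak fall to -0.0640 in skew just before the start, and genes with an upstream peak reach 0.117 just after it.

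Promoter elements were counted as exact letters on both strands from 250 bp upstream to 50 bp downstream of the start. Over 1095 genes with a sense promoter peak in either list and 17466 eligible genes with sequence, the GC box GGGCGG was present in 73.6% (70.9% to 76.1%) and 49.9% (49.1% to 50.6%), and the CCAAT box CCAAT in 44.2% (41.3% to 47.2%) and 35.6% (34.9% to 36.3%). The core letters CCGGAAG, bound by ETS factors, were present in 17.4% and 10.1%, TGACGTCA, the cyclic AMP response element, in 4.66% and 2.13%, GCATGCGC, bound by NRF1, in 5.30% and 3.27%, and AAGATGGCG, bound by YY1, in 3.11% and 1.53%. The TATA box TATAAA was less frequent, in 6.67% (5.34% to 8.30%) and 11.8% (11.3% to 12.3%). The CCAAT box was present in 45.4% (42.2% to 48.6%) of genes with a start-covering peak. In the 121 genes with a wholly upstream peak it was at 33.9% (26.1% to 42.7%), an interval that holds the share of all eligible genes. The GC box was at 74.2% and 71.1% in these groups. GC content just before the start moved with these shares, at 67.1% in genes with a start-covering peak and 61.1% in genes without one, and its part in them was not tested.

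Gene length had a median of 24885 bp for genes with a sense promoter peak and 27176 bp for eligible genes without, and the first exon one of 183 bp and 191 bp. A single-exon canonical transcript was less common, in 34 of 1096 (3.10%, 2.23% to 4.30%) against 6.46% (6.10% to 6.85%). Chromosome 19 had the highest share of eligible genes with a sense promoter peak of chromosomes 1 to 22, X and Y, 89 of 1264 in each list (7.04%, 5.76% to 8.59%).

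By function, cytosolic and mitochondrial ribosomal protein genes, respiratory chain genes and immediate early genes had sense promoter peaks at larger shares than the 4.36% and 4.91% of eligible genes, with Wilson intervals above these values in both lists. The lists are gene families and pathways chosen with earlier results of these data known, and their counts are descriptions. Of 63 eligible cytosolic ribosomal protein genes 12 (19.0%, 11.2% to 30.4%) had one in untreated and 9 (14.3%, 7.70% to 25.0%) in treated cells. RPL14, RPL17, RPL37A, RPS15, RPS27 and RPS7 were among those with one in both lists. RPL13, RPL23A, RPL28, RPL35A and RPS19 had one in the untreated list alone, and RPL5 and RPS20 in the treated list alone. At RPL23A, RPL28, RPL35A, RPS19, RPL5 and RPS20 the other list had an overlapping same-strand peak with its midpoint outside the window. RPS27, a protein of the small subunit, had the same 750-bp peak in both lists (chr1:153962830-153963579). A gene-strand peak 101 to 1000 bp downstream was present in either list at 42 of the 63. It was present at 15 of 35 immediate early, 18 of 55 respiratory chain and 12 of 51 mitochondrial ribosomal protein genes. Within a single list, eligible genes grouped by distance to the preceding gene had such a peak at 8.25% to 20.7% in untreated and 9.70% to 22.1% in treated cells. The share of all eligible genes over either list is not given here. With the start of any coding transcript, 50.8% and 54.0% of the cytosolic ribosomal protein genes had a sense promoter peak, against 10.2% and 11.9% of eligible genes.

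Of 51 mitochondrial ribosomal protein genes 9 (17.6%, 9.57% to 30.3%) had a sense promoter peak in untreated and 11 (21.6%, 12.5% to 34.6%) in treated cells, among them MRPL2 with the same 750-bp peak in both lists and MRPL35 and MRPL55 with 500 bp. Respiratory chain subunits, which build the mitochondrial electron transport and ATP synthase complexes, had one at 6 (10.9%) and 7 (12.7%) of 55 genes, with NDUFA4 at 1000 bp and ATP5MC3 and UQCRB at 750 bp in both lists. Translation factors had 5 (9.43%, 4.10% to 20.3%) and 3 (5.66%, 1.94% to 15.4%) of 53, with the share of all eligible genes inside both intervals, and this name-based list also takes in the methyltransferase genes EEF1AKMT1 and EEF2KMT. EIF4A1, the translation initiation helicase, had a 750-bp peak in the untreated list alone, with SENP3 ending 855 bp upstream. Aminoacyl-tRNA synthetases had 2 and 1 of 16, VARS1 with the same 1750-bp peak in both lists (chr6:31763001-31764750) behind LSM2, which ends 1644 bp upstream, and FARSB in the untreated list alone.

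Immediate early genes, which respond to stimuli within minutes, had a sense promoter peak at 7 (20.0%, 10.0% to 35.9%) and 5 (14.3%, 6.26% to 29.4%) of 35 genes. BTG2, DUSP1, IER5 and ZFP36 had one in both lists, CCN2, ID4 and JUNB in the untreated list alone, and EGR1 in the treated list alone. At CCN2 and EGR1 the other list had an overlapping same-strand peak with its midpoint outside the window. The BTG2 peak measured 500 bp without and 1000 bp with treatment, while those of IER5 and DUSP1 were the same 750 bp in both. HOX genes, which pattern the body axis and lie in tandem clusters, had 5 (12.8%) and 4 (10.3%) of 39, with HOXB5 at 1500 bp (chr17:46670539-46672038) and HOXB9 at 1000 bp in both lists. The end of HOXB6 is 1972 bp before the HOXB5 start.

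Among genes that act on R-loops and DNA lesions, R-loop processing factors had 3 (12.5%, 4.34% to 31.0%) and 5 (20.8%, 9.24% to 40.5%) of 24. AQR, an R-loop helicase, had the same 500-bp peak over its start in both lists (chr15:35261633-35262132), and SRSF1, a splicing factor that limits R-loops, the same 750-bp peak. DDX41 had one in the untreated list alone, wholly upstream, with FAM193B ending 2828 bp before the start, and BLM, RNASEH1 and RNASEH2C, a helicase gene and genes of the enzymes that cut RNA in hybrids, in the treated list alone. RNASEH1 had 750 bp (chr2:3605495-3606244). The peaks of SRSF1 and RNASEH1 lie nearer to the start of another annotated coding gene. Nucleotide excision repair had 2 of 17 in each list, among them ERCC4, a repair nuclease, with the same 500-bp peak in both. Translesion synthesis genes had 0 of 5 in each list, too few to set a useful limit.

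For the next 6 lists the share of all eligible genes lay inside the interval in both conditions. DEAD and DEAH helicases had 2 of 41 (4.88%) in each list, with DDX10 in both, DDX41 in the untreated and DDX47 in the treated list alone. The hnRNP, SR and snRNP genes had 2 (4.76%) and 3 (7.14%) of 42, with SRSF1 and SF3A3 in both and SNRPE in the treated list alone. Proteasome subunits had 2 of 31 (6.45%) in each list, PSMB7 at 750 bp and PSMD3 at 500 bp. Heat shock proteins and their partners had 4 (7.02%) and 3 (5.26%) of 57, with DNAJC21, behind BRIX1, at 2000 bp in both lists, although the treated peak was moved 500 bp downstream, DNAJB14, behind H2AZ1, at 1500 bp and 1250 bp, and DNAJC12 at 500 bp. Replication-dependent histones had 4 (10.0%, 3.96% to 23.1%) and 2 (5.00%, 1.38% to 16.5%) of 40, with H4C1 at 2000 bp in the untreated and 500 bp in the treated list. ZNF genes had 27 (5.90%, 4.08% to 8.44%) and 28 (6.11%, 4.26% to 8.69%) of 458, with the widest at ZNF34, 2500 bp in both lists behind RPL8, which ends 2420 bp upstream, at ZNF888 and at ZNF699.

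Most eligible genes had no such peak, so lists of genes of other tissues are read against the 4.36% and 4.91% of all eligible genes. Olfactory receptors and keratins lay below these shares. For the liver, muscle and blood list and the kidney list the counts allow these shares in both conditions. Olfactory receptors had 0 of 408 in each list, which allows a share of up to 0.735%, and keratins and keratin-associated proteins 0 of 149, which allows up to 2.01%. Liver, muscle and blood genes had 0 of 36 in untreated cells, which allows up to 8.33%, and 2 (5.56%, 1.54% to 18.1%) in treated cells. One was ACTA1, skeletal muscle actin, with a 1250-bp peak wholly upstream (chr1:229570011-229571260) that overlaps an untreated peak, in a gene whose start lies 6155 bp after the end of NUP133, and the other CYP2E1, a liver cytochrome, with a 500-bp peak over its start in the treated list alone. Kidney development and epithelial genes had 0 of 17 in each list, which allows up to 17.6%.

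**Figure D5:**
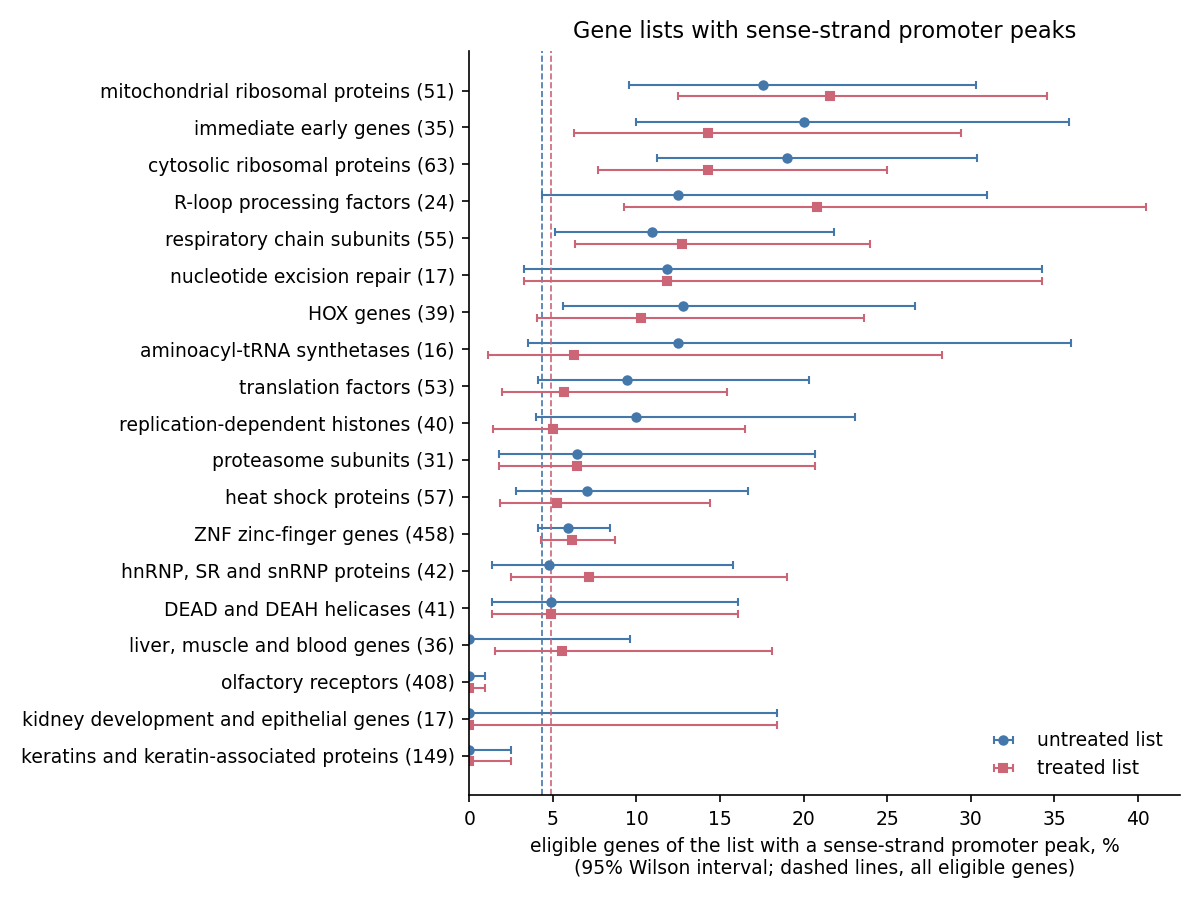
Percent of the eligible genes of each list of at least 15 genes that had a sense-strand promoter peak, with the number of eligible genes in brackets, 95% Wilson intervals and dashed lines at the share of all eligible genes (4.36% and 4.91%). In untreated cells immediate early genes (20.0%) and cytosolic ribosomal proteins (19.0%) lie highest, in treated cells mitochondrial ribosomal proteins (21.6%) and R-loop processing factors (20.8%), and olfactory receptors and keratins are at 0 of 408 and 0 of 149.

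Of 8 genes chosen because the study names them or their proteins, 6 were eligible and 1 had a sense promoter peak. CHERP, a regulator of calcium release and splicing, had a 500-bp peak in the treated list alone (chr19:16653095-16653594), which covers the start with its midpoint at -97 bp, and no same-strand untreated peak within 2000 bp. At KBTBD6, an adaptor of CUL3 ubiquitin ligases, the same-strand peaks had midpoints downstream of the window, at 687 bp without and 187 bp with treatment. The treated peak (chr13:41706501-41707000) nevertheless covers the start, and the untreated peak (chr13:41706001-41706500) lies wholly downstream of it. At GAPDH, a glycolytic enzyme, the midpoints lay at 573 bp and 698 bp, with widths of 1500 bp and 1250 bp, and the untreated peak covers the start. DDX5, an RNA helicase, had the same 750-bp peak in both lists at 1939 bp downstream, and CLSPN and DDX23 had no same-strand peak within 2000 bp in either list. ENTPD5 and POLK were not eligible, since an opposite-strand coding start lies within 1000 bp. ENTPD5 had a treated peak with its midpoint 220 bp downstream and POLK the same 500-bp peak in both lists at 77 bp downstream. These peaks also cover the gene start.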

How the data were processed

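spKAS-seq peaks of HEK293T cells were analysed from 1 deposited list per condition. The authors used Trim Galore for adapter removal, Bowtie2 for alignment (hg19) and Picard for duplicate reads, and called R-loops from 2 replicates with an earlier protocol. Tool versions are not given in the sources used here. Each list, attached to replicate 1, was taken as the list of its condition. The deposited columns hold chromosome, start, end and strand, with no score, count or signal, and all but 9 widths are multiples of 250 bp. Reads, signal tracks and inputs were not used here, so depth per sample is unknown.

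Peaks were assigned to GENCODE release 44 lifted to GRCh37 (the sequence build of hg19) by midpoint. Peaks overlapping by at least 1 bp on the same strand were shared. Base composition was read on the peak strand, leaving out peaks with more than 50% masked bases (1 of the sense promoter peaks, and some of the others). Shares carry 95% Wilson intervals, differences Newcombe intervals that treat the groups as independent, although both lists score the same genes (a Wald interval paired over genes was added after seeing the data), and a count of 0 is limited by 3 counts. These cover counting error only. No p-value was computed. A canonical transcript is the one the annotation marks.

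The members and gene lists were chosen with earlier results of these data known. Genes were named by rule: the 5 widest shared and 3 widest peaks of each list alone, the 4 highest and 2 lowest in GC skew, the 3 widest of each gene list, and those the study names. Wholly upstream peaks named singly, and the members printed for short lists, were picked after values were seen. Some genes that the rule names are not reported here. Scripts were tested on simulated data. Alternatives to the start, window, assignment, exclusion, width, overlap and motif were tried. Python 3.11.15, numpy 2.4.6, scipy 1.17.1, pysam 0.24.0, matplotlib 3.10.9 and samtools 1.23.1 were used.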

Additional observations from a re-analysis of the deposited data

How the results depend on the processing

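With 1 list per condition, replicates could not be left out, and depth sets an unknown limit on which peaks were called. No paired analysis was possible because there is 1 list per condition and so no replicates to pair. Pairing the genes of the lists, chosen after seeing the data, narrowed the interval of the 0.549-point difference to 0.281 to 0.817. Values are given for untreated and treated cells. Of 64 alternatives to the 17 main results, 29 stayed within the interval of the value reported (counts, within 1.5 times). A change of sign was scored only for the difference between conditions, where 0 occurred. The prevailing strand of promoter peaks turned with the start used. The start and the assignment moved most. With any coding transcript start there were 1774 and 2064 sense promoter peaks at 10.2% and 11.9% of eligible genes, 52.8% and 54.0% of promoter peaks were on the gene strand (a majority, where the gene start gave 37.9% and 38.8%), and the difference between conditions was 1.69 points. With 1 bp of overlap with the window there were 2066 and 2342 peaks at 12.2% and 13.8% of genes, and the difference was 1.60 points. From 500 bp upstream 3.77% and 4.28% of genes had a peak. With no gene left out, 33.0% and 34.3% of promoter peaks were on the gene strand, and among peaks of at least 750 bp 45.1% and 47.1%. At 50% reciprocal overlap 80.9% of untreated sense promoter peaks were shared. The central 500 bp of untreated peaks had a median GC skew of -0.0161. A G-quadruplex motif was present in 40.9% and 42.5% of peaks with loops of up to 12 bases, in 17.7% and 18.9% of central 500-bp parts, and in 33.2% and 34.9% of peaks of at least 750 bp. A coding gene ended within 2 kb upstream at 26.8% and 23.2% of genes, and within 10 kb at 48.2% and 45.8%. Among genes whose canonical transcript begins at the gene start, chosen after seeing the data, 5.24% had a treated sense promoter peak, 43.1% and 43.9% of promoter peaks were on the gene strand, and 34.4% and 33.0% of genes followed a gene within 5 kb. For the gene lists 20 of 84 alternatives moved, all with any coding transcript start. The cause of these shifts was not tested beyond the construction of each alternative.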
